A study of Mus musculus with 94 samples.

Results

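The 10 circadian clock genes Per1, Per2, Per3, Cry1, Cry2, Bhlhe41, Nr1d1, Nr1d2, Dbp and Tef were read by symbol from a table of 49080 genes, and each symbol matched 1 gene. The table held total RNA-Seq of 94 subcutaneous 4T1 tumors, a mouse mammary carcinoma line, grown in female BALB/c mice implanted at 8 weeks of age. Tumors received 6 Gy IR, indomethacin (INDO), an NSAID that blocks the prostaglandin enzymes COX1 and COX2 and reached the mice through their drinking water at 30 mg/L, both (6 Gy + INDO), or neither (untreated controls), and all 4 groups carried the same implanted line. They were harvested 1, 3, 7, 15 and 23 days after IR. Each treated group held 5 tumors on each day, apart from 4 tumors of 6 Gy + INDO on day 3, and controls numbered 4, 5, 5, 3 and 3 on those days, which gave 25 tumors of 6 Gy, 25 of INDO, 24 of 6 Gy + INDO and 20 controls. Per the sample labels the mice were housed under a day and night cycle, and for the hour at which each tumor was taken the sources used here give no value. All 6 epithelial markers (Epcam, Cdh1 and 4 keratins) had reads in every group. Such reads cannot identify the tissue, since all listed markers of skeletal muscle, neutrophils and T cells had reads in every group too.

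The mammalian clock is a feedback loop of transcription that runs in nearly every cell. The activators CLOCK and BMAL1 (gene Arntl) bind E-box motifs and switch on the Per and Cry genes, whose proteins return to the nucleus and block their own activators. Another loop runs through Nr1d1 and Nr1d2, which encode REV-ERB receptors that repress Arntl at RORE motifs, and the D-box factors DBP and TEF are outputs that also feed back on Per genes. In mouse peripheral tissues, Arntl RNA peaks at the opposite phase to Nr1d1 and Dbp RNA, so the hour of harvest can move all of these genes. Per1 is also an immediate early gene induced by stress hormones, and Bhlhe41 is also induced by low oxygen.

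Stretches of promoter that hold these motifs are shown for the members with one, since the motifs are the sites through which the loop is known to act.
RefSeq promoters (GRCm38.p6) were found for 9 of the 10 members, in 11 promoters because Per1 and Tef have 2 starts each.
The 250 bases before each start were searched on both strands for the E-box CACGTG, the D-box TTANGTAA and the RORE TAGGTCA, and the capitals mark the motif.
Cry1 E-box, chr10:85185079-85185144, minus strand: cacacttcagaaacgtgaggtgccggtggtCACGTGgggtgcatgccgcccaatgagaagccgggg
Per1 E-box, chr11:69098771-69098800, plus strand: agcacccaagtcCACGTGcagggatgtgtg
Bhlhe41 E-box, chr6:145865556-145865585, minus strand: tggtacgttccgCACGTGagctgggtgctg
Tef E-box, chr15:81802534-81802563, plus strand: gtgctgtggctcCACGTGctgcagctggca
Tef E-box, chr15:81811264-81811293, plus strand: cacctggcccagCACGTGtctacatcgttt
Per3 D-box, chr4:151044786-151044900, minus strand: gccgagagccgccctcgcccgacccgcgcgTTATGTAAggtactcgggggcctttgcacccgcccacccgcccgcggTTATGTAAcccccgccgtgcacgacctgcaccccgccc
An E-box stood in promoters of 4 members, against 6.02% of 32851 RefSeq promoters, which is a share of promoters and not of genes. It began 60 bases before the RefSeq start in Cry1, 166 in Per1, 153 in Bhlhe41, and 127 and 138 in the 2 promoters of Tef. The E-box stretches of Per1, Bhlhe41 and Tef reach into the gene as annotated by GENCODE, and that of Cry1 does not.
The D-box occurred only in Per3 among these members, with 2 copies that began 205 and 158 bases before the start, and in 2.06% of all promoters.
No member held the RORE, which 2.23% of all promoters did, and no motif overlapped another.
A match describes these letters in this window and is not a measure of binding. Of the genes with an E-box here, Cry1 fell, Bhlhe41 and Tef rose and Per1 was not called in INDO tumors of day 1, and the part of the E-box was not tested.

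Library totals ranged from 20.996 to 109.3 M counts (mega), with medians of 66.6 M in 6 Gy, 41.0 M in INDO and 37.5 M in 6 Gy + INDO tumors, against 73.4 M in controls. In 11 tumors, 332 to 1952 counts per M counts (CPM) fell on olfactory and vomeronasal receptor genes, against 42.3 to 131 CPM in the other 83. These high-receptor tumors were 8 of 6 Gy + INDO (day 3 replicates 1, 2 and 4, day 7 replicates 2, 3 and 5, day 23 replicates 2 and 4), 2 of INDO (day 1 replicate 5, day 15 replicate 3) and the control of day 15 numbered replicate 1. Results without them are given only where stated. Cell type markers also differed between groups. On day 1, the sum of 8 macrophage markers was 486 to 775 CPM in 6 Gy, 551 to 654 CPM in INDO and 491 to 645 CPM in 6 Gy + INDO tumors, against 1434 to 2009.9 CPM in controls, and the sum of 8 endothelial markers was 112 to 175 CPM in 6 Gy, 108 to 177 CPM in INDO and 95.1 to 162 CPM in 6 Gy + INDO tumors, against 224 to 331 CPM in controls. The 8 fibroblast markers summed to 2014 to 5818 CPM in 6 Gy, 3497 to 7428 CPM in INDO and 5115 to 7110.1 CPM in 6 Gy + INDO tumors, against 6014 to 13906 CPM in controls, and 8 adipocyte markers to 13.9 to 28.1 CPM in 6 Gy, 16.5 to 36.9 CPM in INDO and 13.0 to 26.8 CPM in 6 Gy + INDO tumors, against 34.5 to 102 CPM in controls. All markers of the macrophage, endothelial and fibroblast lists had reads in every group, and each treated group lay below controls without overlap for the macrophage and endothelial sums. On day 7 the endothelial sum was still 89.0 to 179 CPM in 6 Gy, 113 to 176 CPM in INDO and 57.0 to 136 CPM in 6 Gy + INDO tumors, against 238 to 457 CPM in controls, and the fibroblast sum 1465 to 3055 CPM in 6 Gy, 2550.3 to 5560.3 CPM in INDO and 902 to 3092 CPM in 6 Gy + INDO tumors, against 8028 to 15137 CPM in controls. In bulk RNA, fewer cells of a type and less RNA per cell cannot be told apart, and the part of these markers in the clock gene results was tested only as stated beside each result.

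Every member was expressed in every tumor, with the lowest count at 58 for Dbp, and all 10 passed the filter on low counts. CPM are given on library totals scaled by TMM. Within a treatment and day, the log2 CPM of Nr1d1, Per1 and Dbp spread most among the members, with SDs of 0.53, 0.50 and 0.40 over 94 tumors. Tef and Cry2 spread least, with SDs of 0.21 and 0.20, and the activator Arntl had an SD of 0.19. Per1 ranged over 13.1 to 79.1 CPM in 6 Gy, 11.3 to 48.3 CPM in INDO and 8.88 to 42.1 CPM in 6 Gy + INDO tumors, against 11.2 to 43.6 CPM in controls, and the highest tumor was 6.03-fold over the lowest in 6 Gy and 3.90-fold in controls. Nr1d1 ranged over 6.25 to 28.7 CPM in 6 Gy, 4.43 to 30.1 CPM in INDO and 6.94 to 33.6 CPM in 6 Gy + INDO tumors, against 5.01 to 18.1 CPM in controls. By contrast, Cry2 ranged over 8.49 to 27.8 CPM in 6 Gy, 8.39 to 15.5 CPM in INDO and 9.92 to 15.7 CPM in 6 Gy + INDO tumors, against 10.1 to 13.4 CPM in controls, a 1.33-fold range in controls. The treatment groups of each gene overlapped when days were pooled.

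**Figure D1:**
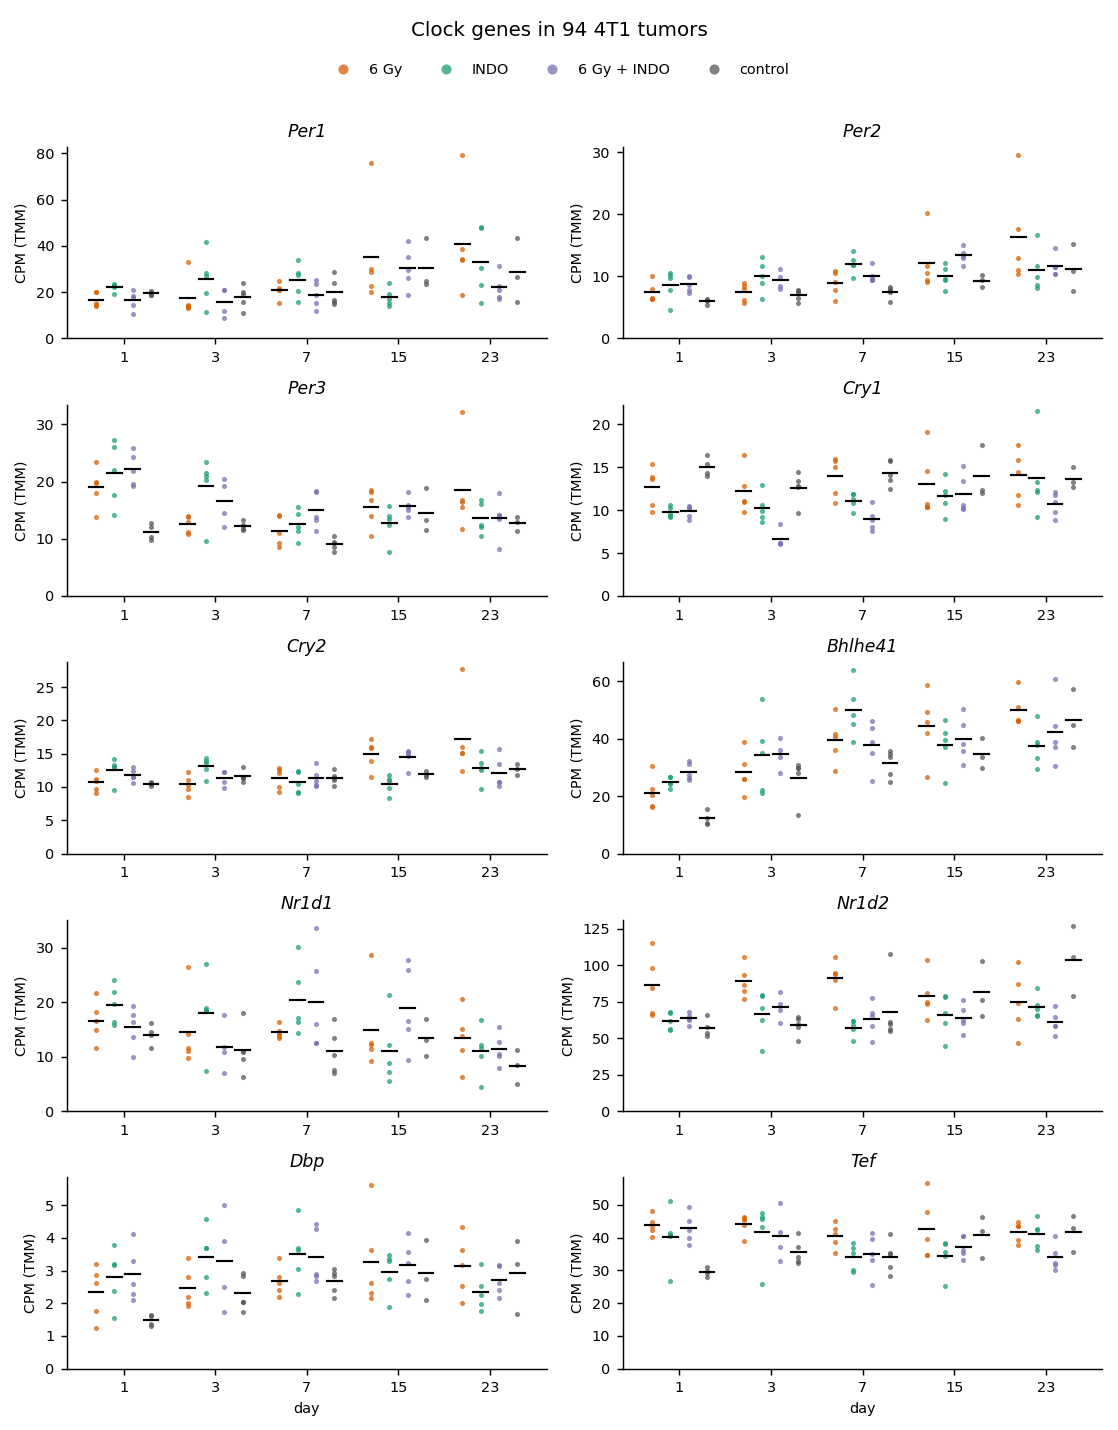
CPM (TMM) of the 10 clock genes by day after IR, 1 panel per gene, with a point per tumor and a bar at the mean of each of the 4 groups. On day 1 the controls of Per3 (9.70 to 12.7 CPM) and Bhlhe41 (10.4 to 15.3 CPM) lie below every treated tumor.

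These comparisons ask whether clock genes differed between treatments and days, as they also would if the hour of harvest differed, and since no source gives that hour its part was not tested. When compared with untreated controls, members were called on days 1, 3 and 7, and they did not all move the same way. On day 1, after 6 Gy, 4 members rose (Per3, Bhlhe41, Nr1d2 and Tef) and 0 fell, against 6.15% of 22276 genes called higher and 9.43% called lower. With INDO, 4 members rose on day 1 (Per3, Bhlhe41, Dbp and Tef) and 1 fell (Cry1), against 5.81% and 8.89% of genes. With 6 Gy + INDO, the same 4 symbols were called higher as with INDO, and Cry1 lower, against 10.7% and 13.3% of genes, and these comparisons share their 4 control tumors. The median log2 fold change of the 10 members on day 1 was 0.45 in 6 Gy, 0.49 in INDO and 0.36 in 6 Gy + INDO tumors, beside medians of 0.06, 0.04 and 0.02 over all genes tested. Calls are edgeR quasi-likelihood tests with an adjusted p under 0.05 over all genes, and since the labels only number the tumors of a group, p-values measure the spread between these tumors. With scores of skeletal muscle, skin and adipocyte markers as covariates, 0 members were called on day 1 in each of the 3 comparisons, and the genes called in all numbered 6 of 22276 in 6 Gy, 15 in INDO and 116 in 6 Gy + INDO tumors.

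On day 3, 1 member was called in each comparison: Nr1d2 rose after 6 Gy, Per3 rose with INDO and Cry1 fell with 6 Gy + INDO. The shares of 21814 genes called higher and lower were 3.62% and 4.1% for 6 Gy, 2.38% and 3.95% for INDO, and 10.1% and 9.43% for 6 Gy + INDO. On day 7, 0 members were called after 6 Gy, against 5.69% of 21874 genes higher and 10.3% lower, with 2 at an unadjusted p under 0.05 and 0 by DESeq2. With INDO, 4 members rose on day 7 (Per2, Per3, Bhlhe41 and Nr1d1), against 12.7% of genes higher and 11.7% lower. With 6 Gy + INDO, Per2, Per3 and Nr1d1 rose and Cry1 fell on day 7, against 24.8% of genes higher and 21.2% lower, so that 4 of 10 members called stood beside 46% of all genes. With the tissue scores as covariates, the member called on day 3 was Cry1 with 6 Gy + INDO, and on day 7 it was Per2 with INDO (adjusted p = 0.0436), among 1631 genes called there. On days 15 and 23 each treatment had 0 members called, with 3 control tumors on each day. Genes called higher and lower on day 15 were 0% and 0% for 6 Gy, 0% and 0% for INDO, and 0.778% and 0.552% for 6 Gy + INDO, and on day 23 they were 0% and 0%, 0% and 0%, and 0% and 0.00473%. At an unadjusted p under 0.05, the members were 0, 1 and 1 on day 15 and 1, 1 and 2 on day 23 for 6 Gy, INDO and 6 Gy + INDO, and DESeq2 called 1 member, with 6 Gy + INDO on day 23. A test for any difference among the 4 groups of a day called 5 members on day 1, 3 on day 3, 6 on day 7, and 0 on days 15 and 23, beside 28.3%, 36.7%, 51%, 0.854% and 0% of genes. Without adjustment that test had 2 members under 0.05 on day 15 and 1 on day 23, and DESeq2 called 1 member on day 15.

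**Figure D2:**
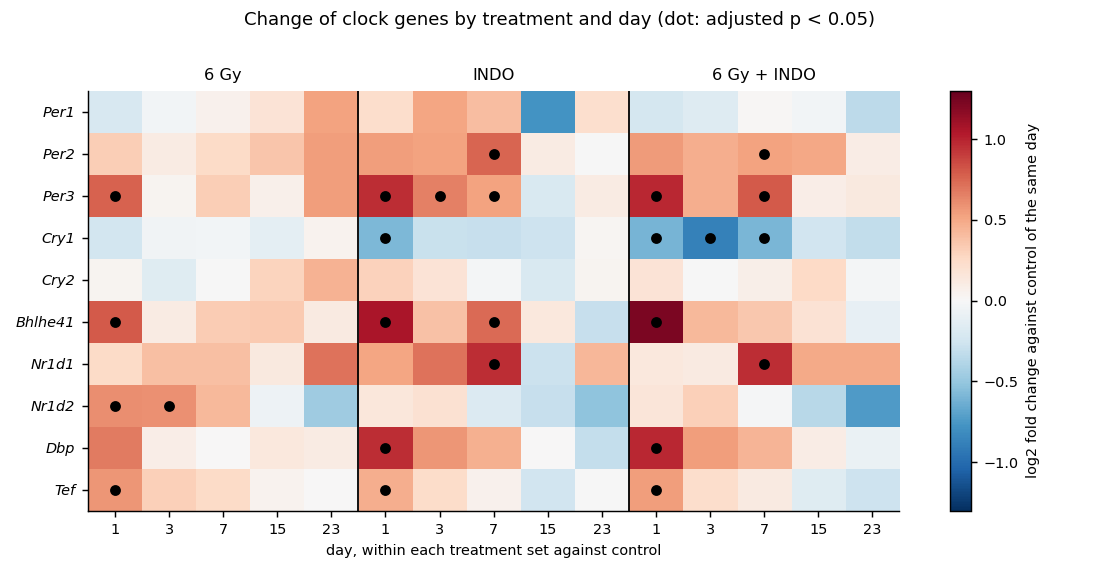
Log2 fold change of the 10 clock genes for each treatment against control by day after IR, as a heat map in which a dot marks an edgeR adjusted p under 0.05. Dots stand on days 1, 3 and 7 only, with Per3 and Bhlhe41 higher in all 3 treatments on day 1 and Cry1 lower in 6 Gy + INDO tumors on days 1, 3 and 7.

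Cry1 encodes cryptochrome 1, a core repressor of CLOCK and BMAL1, and was the 1 member called lower than in controls. On day 1, Cry1 measured 9.19, 9.29, 9.501, 10.7 and 10.3 CPM in INDO tumors and 10.4, 10.2, 9.35, 10.5 and 8.90 CPM in 6 Gy + INDO tumors, against 16.4, 13.99, 15.4 and 14.3 CPM in controls. Every tumor given INDO, alone or with 6 Gy, lay below every control. The log2 fold change of Cry1 on day 1 was -0.58 ± 0.12 (SE, adjusted p = 0.00267) for INDO, and -0.60 ± 0.12 (SE, adjusted p = 0.00118) for 6 Gy + INDO. In 6 Gy tumors of day 1, Cry1 measured 10.6, 9.80, 13.6, 13.9 and 15.4 CPM (-0.24 ± 0.12, adjusted p = 0.182). On day 3, Cry1 measured 6.16, 6.14, 8.44 and 6.01 CPM in 6 Gy + INDO tumors, against 13.4, 12.7, 12.9, 9.62 and 14.5 CPM in controls (-0.88 ± 0.17, adjusted p = 0.00252). All 4 tumors lay below the lowest control, and the one that was not high in receptor reads, replicate 3, was the highest of them at 8.44 CPM. On day 7, Cry1 measured 10.9, 9.36, 7.56, 8.88 and 8.06 CPM in 6 Gy + INDO tumors, against 12.5, 13.6, 14.1, 15.7 and 15.9 CPM in controls (-0.59 ± 0.12, adjusted p = 0.00107), again without overlap. Without high-receptor tumors both calls were lost, at -0.55 on day 3 (adjusted p = 0.436, 1 treated tumor left) and -0.47 on day 7 (adjusted p = 0.0582, 2 treated tumors left). The day 1 fall with 6 Gy + INDO, where no tumor was high in receptor reads, stayed at -0.60 (adjusted p = 0.00155). With the tissue scores as covariates, Cry1 was still called with 6 Gy + INDO on day 3, at -0.96 (adjusted p = 0.00211). Its other calls were then lost, at -0.26 with INDO (adjusted p = 0.962) and -0.31 with 6 Gy + INDO (adjusted p = 0.704) on day 1, and -0.53 with 6 Gy + INDO on day 7 (adjusted p = 0.0756).

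Cry2 encodes the second cryptochrome, which shares the repressor role of Cry1. On day 1, Cry2 measured 11.2, 12.6, 9.05, 9.68 and 10.95 CPM in 6 Gy, 12.9, 12.9, 13.4, 14.2 and 9.54 CPM in INDO and 12.9, 11.5, 11.5, 10.6 and 12.4 CPM in 6 Gy + INDO tumors, against 10.1, 10.6, 10.7 and 10.5 CPM in controls. The groups overlapped, although 4 of 5 INDO tumors lay above every control and INDO replicate 5, a high-receptor tumor, lay below them. No treatment comparison of Cry2 with control passed the test on any day, and its mean over days was 0.13 ± 0.06 in 6 Gy, 0.04 ± 0.06 in INDO and 0.07 ± 0.06 in 6 Gy + INDO tumors (SE). Without INDO replicate 5, Cry2 was called higher with INDO on day 1 (0.38, adjusted p = 0.0243).

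Among the Period genes, which encode the partners of the cryptochromes, Per3 gave the largest day 1 differences. Per3 measured 19.9, 23.4, 13.9, 18.0 and 19.8 CPM in 6 Gy, 22.1, 26.0, 27.3, 17.6 and 14.2 CPM in INDO and 25.8, 19.6, 21.8, 19.3 and 24.2 CPM in 6 Gy + INDO tumors on day 1, against 9.70, 12.0, 10.4 and 12.7 CPM in controls. Every treated tumor lay above every control. Its log2 fold change was 0.76 ± 0.18 (SE, adjusted p = 0.00648) in 6 Gy, 0.96 ± 0.18 (SE, adjusted p = 0.00131) in INDO and 0.98 ± 0.18 (SE, adjusted p = 5.99e-04) in 6 Gy + INDO tumors. On day 7, Per3 measured 15.6, 11.3, 12.1, 9.34 and 14.3 CPM in INDO and 13.3, 18.1, 13.9, 18.3 and 11.3 CPM in 6 Gy + INDO tumors, against 10.6, 9.34, 9.43, 7.71 and 8.57 CPM in controls. The 6 Gy + INDO tumors lay above all controls (0.80 ± 0.17, adjusted p = 0.00164), and INDO replicate 4 lay within the controls (0.52 ± 0.17, adjusted p = 0.0365). The INDO calls of Per3 on days 3 and 7 lay near the limit. The day 3 call (0.65 ± 0.19, adjusted p = 0.0480) was lost when any 1 of 13 of that day's 19 tumors was left out, and the day 7 call when any 1 of 9 of 20 was. Among the 9 were control replicates 2 to 5 and INDO replicates 1, 2, 3 and 5, and the adjusted p reached 0.0919. With 1 tumor left out, the log2 fold change stayed at 0.58 to 0.82 on day 3 and 0.43 to 0.61 on day 7. The day 3 call was also lost without high-receptor tumors.

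Per2, a Period gene needed for a sustained rhythm in mice, changed on day 7. It measured 11.8, 9.75, 14.1, 12.6 and 11.9 CPM in INDO and 9.40, 10.0, 9.55, 12.1 and 9.49 CPM in 6 Gy + INDO tumors on day 7, against 5.91, 7.95, 8.31, 7.48 and 7.68 CPM in controls. Both groups lay above all controls, with log2 fold changes of 0.75 ± 0.14 (SE, adjusted p = 0.00221) for INDO and 0.52 ± 0.14 (SE, adjusted p = 0.00687) for 6 Gy + INDO. In 6 Gy tumors of day 7, Per2 measured 7.84, 10.5, 10.9, 9.11 and 6.10 CPM (0.25 ± 0.14, adjusted p = 0.240). Per1, the Period gene that responds fastest to stress and hormones, passed no test of a treatment against control. On day 1 it measured 20.3, 20.2, 14.3, 14.05 and 15.2 CPM in 6 Gy, 23.1, 19.4, 23.7, 22.8 and 22.4 CPM in INDO and 18.5, 20.9, 14.6, 18.1 and 10.8 CPM in 6 Gy + INDO tumors, against 20.6, 20.1, 18.6 and 18.6 CPM in controls. The log2 fold changes of Per1 over the 5 days lay between -0.78 and 0.52, and as a mean over days they were 0.11 ± 0.15 in 6 Gy, 0.09 ± 0.15 in INDO and -0.18 ± 0.15 in 6 Gy + INDO tumors (SE).

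Bhlhe41 encodes DEC2, a repressor that competes at E-boxes, and gave the largest change of any member. On day 1, Bhlhe41 measured 16.4, 20.3, 30.4, 22.5 and 16.3 CPM in 6 Gy, 24.6, 26.5, 22.4, 24.2 and 26.7 CPM in INDO and 32.1, 25.7, 31.0, 27.4 and 26.4 CPM in 6 Gy + INDO tumors, against 12.5, 15.3, 10.4 and 10.7 CPM in controls. Every treated tumor lay above every control. The log2 fold change was 0.80 ± 0.16 (SE, adjusted p = 0.00239) in 6 Gy, 1.06 ± 0.16 (SE, adjusted p = 2.31e-04) in INDO and 1.23 ± 0.16 (SE, adjusted p = 3.67e-05) in 6 Gy + INDO tumors. On day 7 it measured 45.04, 48.1, 63.9, 53.9 and 38.8 CPM in INDO tumors, against 25.1, 35.9, 33.6, 34.7 and 27.6 CPM in controls (0.74 ± 0.17, adjusted p = 0.00577). Again no INDO tumor reached down into the controls. Of 10 hypoxia-induced genes, 1 was called higher and 0 lower in each treatment on day 1, with 4 after 6 Gy, 2 with INDO and 2 with both at an unadjusted p under 0.05. Their median log2 fold change was 0.48 in 6 Gy, 0.10 in INDO and -0.21 in 6 Gy + INDO tumors, beside 0.06, 0.04 and 0.02 over all genes, and their sum was 1694 to 3421 CPM in 6 Gy, 1207 to 2254 CPM in INDO and 1227 to 2004 CPM in 6 Gy + INDO tumors, against 1551 to 2058 CPM in controls. On day 7 with INDO, 1 of the 10 hypoxia-induced genes was called higher and 0 lower, against 12.7% and 11.7% of genes. Their median log2 fold change there was -0.41, beside 0.02 over all genes. The part of low oxygen in the Bhlhe41 values was not tested.

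Of the REV-ERB genes, Nr1d2 changed after 6 Gy and Nr1d1 with INDO. On day 1, Nr1d2 measured 67.3, 65.8, 115, 98.1 and 84.1 CPM in 6 Gy tumors, against 51.1, 53.3, 66.1 and 57.4 CPM in controls (0.60 ± 0.14, adjusted p = 0.00565), and the groups overlapped. On day 3 it measured 86.3, 93.4, 76.9, 82.5 and 105 CPM in 6 Gy tumors, against 63.3, 47.9, 59.7, 57.7 and 64.5 CPM in controls (0.60 ± 0.15, adjusted p = 0.0239). All 5 irradiated tumors lay above the controls, and without 6 Gy replicate 2 the adjusted p was 0.0590. On day 23 the direction differed, with 87.4, 46.7, 63.0, 73.8 and 102 CPM in 6 Gy tumors, against 127, 105 and 78.6 CPM in controls (-0.46 ± 0.21, adjusted p = 0.331). Nr1d1, which encodes REV-ERBα and is among the genes with the deepest daily rhythm in mouse tissues, measured 16.3, 30.1, 23.7, 17.1 and 14.3 CPM in INDO and 33.6, 12.5, 12.4, 15.9 and 25.8 CPM in 6 Gy + INDO tumors on day 7, against 7.03, 7.58, 16.9, 10.3 and 13.5 CPM in controls. Both groups overlapped with controls, and the log2 fold changes were 0.96 ± 0.29 (SE, adjusted p = 0.0238) for INDO and 0.96 ± 0.29 (SE, adjusted p = 0.0123) for 6 Gy + INDO. The INDO call was lost without control replicate 2 or 4, or INDO replicate 2 or 3, with an adjusted p of up to 0.0800. On day 1, Nr1d1 measured 18.2, 21.6, 14.9, 11.7 and 16.5 CPM in 6 Gy, 19.6, 15.8, 21.9, 23.96 and 16.4 CPM in INDO and 17.6, 19.4, 13.7, 16.3 and 9.86 CPM in 6 Gy + INDO tumors, against 11.6, 16.1, 14.03 and 14.4 CPM in controls, with overlap and no call.

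The D-box activators Dbp and Tef are outputs of the clock. On day 1, Dbp measured 3.78, 2.38, 3.19, 3.16 and 1.55 CPM in INDO and 3.297, 4.13, 2.29, 2.60 and 2.09 CPM in 6 Gy + INDO tumors, against 1.62, 1.29, 1.35 and 1.63 CPM in controls. The 6 Gy + INDO tumors lay above all controls (0.98 ± 0.29, adjusted p = 0.0204), and the INDO tumors overlapped with them (0.96 ± 0.29, adjusted p = 0.0333). Dbp had the fewest reads of the members, and its INDO call was lost when any 1 of 7 tumors was left out (a control, or INDO replicate 1, 3 or 4), and its 6 Gy + INDO call in the absence of replicate 2 of 6 Gy + INDO or of control replicate 2 or 3. Tef measured 44.9, 48.3, 40.1, 43.5 and 42.2 CPM in 6 Gy, 40.4, 40.7, 51.2, 41.5 and 26.7 CPM in INDO and 42.4, 45.3, 39.9, 37.7 and 49.3 CPM in 6 Gy + INDO tumors on day 1, against 29.7, 28.0, 29.1 and 31.2 CPM in controls. The 6 Gy and 6 Gy + INDO tumors lay above all controls, and INDO replicate 5 did not. The log2 fold change of Tef was 0.58 ± 0.13 (SE, adjusted p = 0.00448) in 6 Gy, 0.47 ± 0.13 (SE, adjusted p = 0.0167) in INDO and 0.55 ± 0.13 (SE, adjusted p = 0.00413) in 6 Gy + INDO tumors, and the INDO call was lost without control replicate 3 (adjusted p = 0.0507).

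As a mean over the 5 days, in 1 fit of all 94 tumors, the Period genes Per2 and Per3 and the repressor Bhlhe41 were higher in all 3 treatments, and Cry1 was lower in both INDO groups. After 6 Gy, 5 members rose and 0 fell (9.19% of 29373 genes called higher, 10.6% lower), with Nr1d2 (0.22 ± 0.08 SE, adjusted p = 0.0387) and Tef (0.24 ± 0.06 SE, adjusted p = 0.00336) beside those 3. With INDO, 5 rose and 1 fell (16.8% and 17.4% of genes), and with 6 Gy + INDO 5 rose and 1 fell (29.6% and 23.2%). Nr1d1 and Dbp were the other 2 that rose, at 0.44 ± 0.16 (SE, adjusted p = 0.0258) and 0.31 ± 0.12 (SE, adjusted p = 0.0424) with INDO, and at 0.41 ± 0.16 (SE, adjusted p = 0.0270) and 0.37 ± 0.13 (SE, adjusted p = 0.0108) with 6 Gy + INDO. The log2 fold change of Per3 against control was 0.35 ± 0.10 in 6 Gy, 0.39 ± 0.10 in INDO and 0.47 ± 0.10 in 6 Gy + INDO tumors (SE), and its mean level lay above control on 5 of 5 days with 6 Gy + INDO. For Cry1 the log2 fold change was -0.31 ± 0.08 (SE, adjusted p = 9.72e-04) with INDO and -0.56 ± 0.08 (SE, adjusted p = 1.70e-08) with 6 Gy + INDO, and its mean level lay below control on 5 of 5 days with 6 Gy + INDO. The median log2 fold change of the members was 0.23 in 6 Gy, 0.20 in INDO and 0.22 in 6 Gy + INDO tumors, beside 0.03, 0.07 and 0.19 over all genes. Leaving out 1 replicate number at a time ended the calls of Per2, Bhlhe41 and Nr1d2 after 6 Gy (without 2, 1 and 4 of the 5), of Nr1d1 (3) and Dbp (4) with INDO, and of Nr1d1 (3) and Dbp (2) in the 6 Gy + INDO comparison. Cry1 with INDO was lost without replicate 3 (adjusted p = 0.0555), while Cry1 with 6 Gy + INDO and Per3 in all 3 treatments were lost in none. The calls of Nr1d2 after 6 Gy and of Dbp with INDO were also lost without high-receptor tumors. Without day 1, 0 members were called after 6 Gy, with log2 fold changes of 0.11 (Nr1d2) to 0.30 (Per2) for the 5. The INDO count was 3 without day 1, 4 without day 3 and 3 without day 7. Per3, Nr1d1 and Dbp lost their INDO calls without day 1, and the 3 there included a member not called over all 5 days. Bhlhe41 was lost without day 1 with INDO and with 6 Gy + INDO as well (edgeR adjusted p = 0.183 and 0.238). Dbp with 6 Gy + INDO was also lost without day 1 (0.235). With tissue scores as covariates, 0 members were called after 6 Gy and 3 with INDO. Of the INDO calls, those of Per3, Nr1d1 and Dbp were lost and those of Cry1 and Bhlhe41 kept. The 3 thus included a member not called without the scores. Per3 was then called with 6 Gy + INDO but not with 6 Gy or INDO. Cry1 stayed lower at -0.38 with INDO and -0.62 with 6 Gy + INDO. Per2 was then called in no treatment, with an adjusted p of 0.0778 for 6 Gy + INDO. Cry1 with 6 Gy + INDO was -0.49 (adjusted p = 1.78e-04) when high-receptor tumors were left out.

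Set against 6 Gy alone, 3 members were lower and 0 higher with 6 Gy + INDO (19.8% of genes called lower, 25.9% higher). These were Cry1 (-0.48 ± 0.07 SE, adjusted p = 3.13e-07), Nr1d2 (-0.38 ± 0.07 SE, adjusted p = 3.71e-05) and Tef (-0.17 ± 0.06 SE, adjusted p = 0.0135), of which Tef was lost without replicate 2 (adjusted p = 0.0914). The Tef call was also lost without high-receptor tumors. Scaling libraries by 14 housekeeping genes moved the median of all genes by 0.26 in this comparison and gave 0.072 for Tef and -0.11 for Nr1d2, without a call. Relative to that shift the values were -0.18 for Tef and -0.37 for Nr1d2. Taking off the shift largely undoes the scaling, so they are no separate check. Set against INDO alone, Cry1 was the 1 member called (-0.25 ± 0.07 SE, adjusted p = 0.0203), lower, against 3.54% of genes lower and 7.21% higher, and the call was lost without high-receptor tumors or without replicate 2, 4 or 5. The interaction of 6 Gy and INDO on the log2 scale called 0 members, against 5.65% of genes higher and 1.92% lower, with 5 members at an unadjusted p under 0.05 and 1 called by DESeq2.

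**Figure D3:**
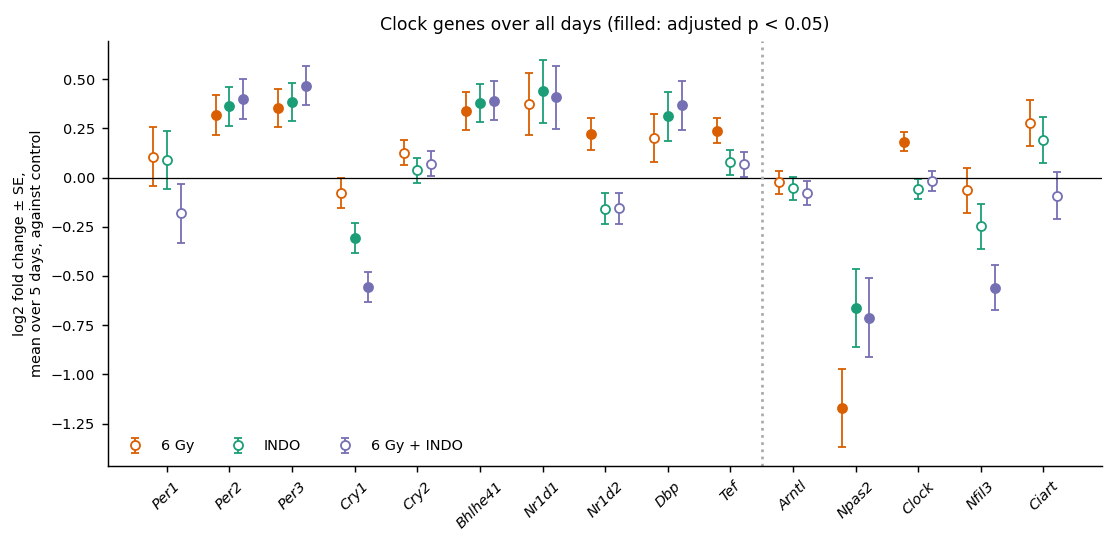
Log2 fold change ± SE against control, as a mean over 5 days, of the 10 clock genes and of Arntl, Npas2, Clock, Nfil3 and Ciart. Treatments stand side by side in color within each gene, with filled points for an edgeR adjusted p under 0.05. Cry1 lies below 0 with INDO (-0.31) and 6 Gy + INDO (-0.56), while Arntl lies near 0 in all 3 treatments (-0.02, -0.06 and -0.08).

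Days were also compared within a treatment, since the tumors of each day were taken apart from those of the other days. Among untreated controls, 5 members differed between days (30.2% of 29373 genes did), and Bhlhe41 climbed most. Bhlhe41 averaged 12.2, 26.4, 31.4, 34.5 and 46.4 CPM in controls on days 1, 3, 7, 15 and 23, and its log2 fold change on day 23 relative to day 1 was 1.92 ± 0.24 (SE, adjusted p = 5.32e-09). Marker sums of the controls moved over the same days, with 8 macrophage markers at 1434 to 2009.9 CPM on day 1, 470 to 574 CPM on day 15 and 781 to 841 CPM on day 23, and 8 fibroblast markers at 6014 to 13906, 2349 to 3495 and 1944 to 6437 CPM. The 8 neutrophil markers summed to 262 to 414 CPM in controls of day 1, 977 to 2279 CPM of day 15 and 394 to 1281 CPM of day 23, and the part of these 3 cell types in the changes between days was not tested. For Bhlhe41, control tumors of day 1 had the lowest mean, on the day when each treatment lay above them. Nr1d2 averaged 57.0, 58.6, 67.7, 81.3 and 104 CPM in controls on the same days (0.86 ± 0.20 SE, adjusted p = 6.21e-04 for day 23 relative to day 1). Per2 (adjusted p = 0.0180), Dbp (0.0352) and Tef (0.0452) were the other 3, and these calls were lost without 3, 4 and 4 of the 5 replicate numbers. Bhlhe41 was the 1 member still called between days in controls with tissue scores as covariates, and Nr1d2 was also lost without replicate 2 (adjusted p = 0.0583). In 6 Gy tumors 5 members differed between days (23.3% of genes): Per1, Per2, Per3, Cry2 and Bhlhe41. Per1 averaged 16.8 CPM on day 1 and 41.0 CPM on day 23 (1.29 ± 0.31 SE, adjusted p = 0.00139), with 38.7, 79.1, 18.9, 34.0 and 34.5 CPM in the day 23 tumors, and the between-day calls of Per1 and Per3 were lost without replicate 2 of each group (adjusted p = 0.0581 and 0.1003). Per2 averaged 7.46 CPM on day 1 and 16.3 CPM on day 23 (1.13 ± 0.21 SE, adjusted p = 2.74e-05). In INDO tumors 3 members differed between days (25.9% of genes), namely Per3, Bhlhe41 and Nr1d1, of which Nr1d1 was lost without 4 of the 5 replicate numbers, and in 6 Gy + INDO tumors 3 did (43.6%), namely Per1, Per3 and Cry1, all of which were lost without high-receptor tumors.

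The treatment effect itself differed between days for few members. For 6 Gy this was 1 member, Nr1d2 (adjusted p = 0.0123, 3.82% of genes called), lost without replicate 2 (adjusted p = 0.175), whose means were 86.1, 88.9, 90.9, 78.9 and 74.6 CPM in 6 Gy tumors over the 5 days, against 57.0 to 104 CPM in controls. Its control level was lowest on day 1, when 6 Gy tumors were called higher, and highest on day 23, when they were not. For INDO it was Bhlhe41 (0.0375, 2.66% of genes), a call lost when any 1 replicate number was left out, and for 6 Gy + INDO it was Bhlhe41 (0.00661), Nr1d2 (0.00651) and Tef (0.00801), against 33.6% of genes. Of these, Bhlhe41 was lost without replicate 4, Nr1d2 without replicate 1, and Tef without replicate 1 or 2.

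Besides the activators Arntl, Arntl2, Clock and Npas2, the list of other clock genes held further regulators, kinases, ubiquitin ligases and outputs. Whether these 21 genes moved with the members was read next. Of these, 3 were called in 6 Gy, 2 in INDO and 6 in 6 Gy + INDO tumors on day 1 (1, 1 and 2 higher), which is 14.3%, 9.52% and 28.6% of them, beside 15.6%, 14.7% and 24.1% of all genes. On day 3 the counts were 1, 2 and 6 (4.76%, 9.52% and 28.6%, beside 7.72%, 6.33% and 19.5% of all genes), on day 7 they were 4, 2 and 7 (19%, 9.52% and 33.3%, beside 16%, 24.3% and 46%), and on days 15 and 23 they were 0. As a mean over days 7 were called in 6 Gy tumors (3 higher, 4 lower), 6 in INDO tumors (2 and 4) and 8 in 6 Gy + INDO tumors (2 and 6), or 33.3%, 28.6% and 38.1%, beside 19.8%, 34.2% and 52.8% of all genes. Arntl encodes BMAL1, and its RNA is known to run opposite to Nr1d1 and Dbp over the day. On day 1, Arntl measured 15.9, 15.3, 10.3, 11.7 and 12.2 CPM in 6 Gy, 14.3, 10.4, 11.7, 13.6 and 12.2 CPM in INDO and 9.98, 12.4, 10.7, 13.4 and 13.4 CPM in 6 Gy + INDO tumors, against 12.6, 12.7, 16.8 and 16.4 CPM in controls. The groups overlapped, and Arntl was called in no treatment comparison with control on any day. As a mean over days its log2 fold change was -0.02 ± 0.06 in 6 Gy, -0.06 ± 0.06 in INDO and -0.08 ± 0.06 in 6 Gy + INDO tumors (SE), and over all 94 tumors it ranged from 9.98 to 24.6 CPM. Scaling by housekeeping genes, which moved the median of all genes by 0.24, gave 0.17 for the 6 Gy + INDO value, and Arntl was then called higher. Relative to that shift the value was -0.07, but taking off the shift largely undoes the scaling and is no separate check. Within treated groups Arntl did change with the day, at 0.41 ± 0.12 (SE, adjusted p = 0.0108) in 6 Gy, 0.59 ± 0.12 (SE, adjusted p = 1.54e-04) in INDO and 0.52 ± 0.12 (SE, adjusted p = 0.00129) in 6 Gy + INDO tumors on day 23 relative to day 1. The activator Arntl2 had a mean of days of 50.5 CPM in 6 Gy, 48.8 in INDO and 47.4 in 6 Gy + INDO tumors, against 42.3 CPM in controls. Its mean lay above control on 4, 5 and 5 of 5 days, and the groups overlapped when days were pooled.

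Clock, the partner of Arntl, rose after 6 Gy as a mean over days (0.18 ± 0.05 SE, adjusted p = 0.00426). Npas2, which can stand in for CLOCK, fell in all 3 treatments, at -1.17 ± 0.20 (SE, adjusted p = 4.17e-06) in 6 Gy, -0.66 ± 0.20 (SE, adjusted p = 0.00648) in INDO and -0.71 ± 0.20 (SE, adjusted p = 0.00211) in 6 Gy + INDO tumors. On day 3, Npas2 measured 0.853, 0.798, 0.767, 1.09 and 0.873 CPM in 6 Gy, 0.556, 0.5997, 1.32, 1.12 and 0.933 CPM in INDO and 0.781, 0.747, 0.914 and 1.04 CPM in 6 Gy + INDO tumors, against 2.42, 2.44, 2.21, 3.24 and 1.35 CPM in controls. All treated tumors lay below the controls on day 3, and on day 23 the controls held 0.237, 1.25 and 0.743 CPM. Nfil3 encodes a repressor that competes with DBP and TEF at D-boxes, and it was lower with 6 Gy + INDO (-0.56 ± 0.11 SE, adjusted p = 4.28e-05). Hlf, the third D-box activator, was lower after 6 Gy (-1.17 ± 0.39 SE, adjusted p = 0.0221), at few reads (mean log2 CPM of -1.52), whereas its relative Tef was higher. Ciart, which encodes the repressor CHRONO, was lower in 6 Gy + INDO than in 6 Gy tumors (-0.37 ± 0.11 SE, adjusted p = 0.00467). Of 7 glucocorticoid-induced genes, a hormone signal that also acts on Per1, 1 was called lower in 6 Gy, 3 in INDO and 4 in 6 Gy + INDO tumors on day 1, beside the shares of all genes given for that day, and 0 were called higher. Dusp1, among these the gene of a phosphatase that is also an immediate early gene, measured 12.2, 7.84, 9.39, 11.7 and 8.44 CPM in INDO and 10.2, 9.89, 8.24, 9.95 and 7.99 CPM in 6 Gy + INDO tumors on day 1, against 16.7, 17.9, 17.8 and 16.6 CPM in controls. Dusp1 fell in both groups by edgeR (adjusted p = 0.0142 and 0.00301) while Per1 was not called. The part of glucocorticoid signals in the clock gene values was not tested.

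Tumors of 1 treatment and day differed among themselves, so the members were also compared within groups, as log2 CPM minus the group mean over 94 tumors. Of the 55 pairs that the 10 members and Arntl form, 26 were correlated at an adjusted p under 0.05 (permutation within groups, 100000 resamples, adjusted over the 55 pairs), and all 26 had a positive Pearson r. Negative Pearson pairs passed within 6 Gy (2 of 16 pairs, Nr1d2 with Per3 at -0.61 and with Cry2 at -0.64), without day 15 (1 of 22, Cry2 and Nr1d2), with tissue scores removed (1 of 29, Per3 and Bhlhe41) and with 9 marker scores removed (3 of 28, Nr1d2 with Per1, Per2 and Cry2). By Spearman rho 25 pairs passed, 1 of them negative, Per3 and Cry1 (rho = -0.27). The closest were Per1 and Nr1d1, with Pearson r = 0.84 and Spearman rho = 0.80 (p = 1e-05 by permutation, the smallest the resamples can give, adjusted p = 5.50e-05), and r = 0.82 without the 2 tumors farthest on Per1. Per1 and Nr1d1 kept this relation in every treatment, at r = 0.91 within 6 Gy, 0.77 within INDO, 0.82 within 6 Gy + INDO and 0.90 within control tumors. Per1 and Dbp gave Pearson r = 0.72 and Spearman rho = 0.73 (0.69 without the 2 farthest), with r = 0.75 within 6 Gy, 0.66 within INDO, 0.70 within 6 Gy + INDO and 0.79 within control tumors. Nr1d1 and Dbp gave Pearson r = 0.68 and Spearman rho = 0.71 (0.69 without the 2 farthest), with r = 0.68 within 6 Gy, 0.61 within INDO, 0.77 within 6 Gy + INDO and 0.73 within control tumors. A tumor high in Per1 for its group was usually high in Nr1d1 and Dbp. With the scores of 9 marker lists removed, an adjustment chosen after seeing the data, r was 0.66 for Per1 and Nr1d1, 0.54 for Per1 and Dbp, and 0.54 for Nr1d1 and Dbp.

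**Figure D4:**
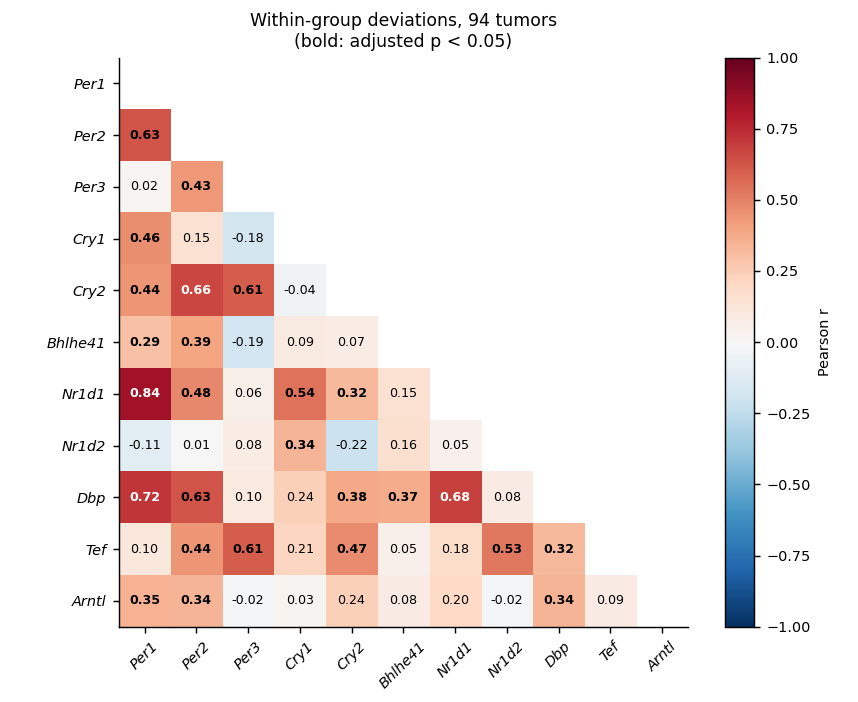
Pearson r between deviations of log2 CPM from the mean of the treatment and day, over 94 tumors, for each pair of the 10 clock genes and Arntl, with bold values at an adjusted permutation p under 0.05. The pairs of Per1, Nr1d1 and Dbp are among the darkest (0.68 to 0.84), and the pairs of Arntl lie between -0.02 and 0.35.

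Other members were tied to each other, and some also to Per1, Nr1d1 and Dbp. Per2 gave Pearson r = 0.63 with Per1, 0.63 with Dbp and 0.48 with Nr1d1. Cry2 gave 0.44, 0.38 and 0.32 with the same genes, and Tef gave 0.32 with Dbp. Each of these passed the limit for Pearson r. Per2 and Cry2 gave Pearson r = 0.66 and Spearman rho = 0.55 (0.58 without the 2 farthest), and Per3 gave Pearson r = 0.61 and Spearman rho = 0.53 with Cry2 and Pearson r = 0.61 and Spearman rho = 0.53 with Tef. Per3 was not tied to Per1, with Pearson r = 0.02 and Spearman rho = -0.04 (p = 0.883 by permutation, adjusted p = 0.908). The r of Per3 and Cry2 varied with the treatment, a difference that was not tested, and was 0.95 within 6 Gy, 0.33 within INDO, 0.62 within 6 Gy + INDO and -0.05 within control tumors. Among the 6 Gy tumors, replicate 2 of day 23 stood far from the rest of its group, at 32.2 CPM of Per3 and 27.8 CPM of Cry2 against at most 16.8 and 15.98 CPM in the other 4 tumors. For Tef with Per3 the controls likewise gave -0.24. Arntl did not run against the other members within groups: its r with the 10 members lay between -0.02 and 0.35, and 3 pairs passed the limit, with Per1 (0.35), Per2 (0.34) and Dbp (0.34). Within treatments the r of Per1 and Arntl was 0.30 within 6 Gy, 0.69 within INDO, -0.25 within 6 Gy + INDO and 0.32 within control tumors, so that the sign turned in 6 Gy + INDO tumors. With 9 marker scores removed it was 0.14 for Per1, and -0.02 for Nr1d1 and Arntl. These pairs share libraries, so a shift of 1 library moves both genes.

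**Figure D5:**
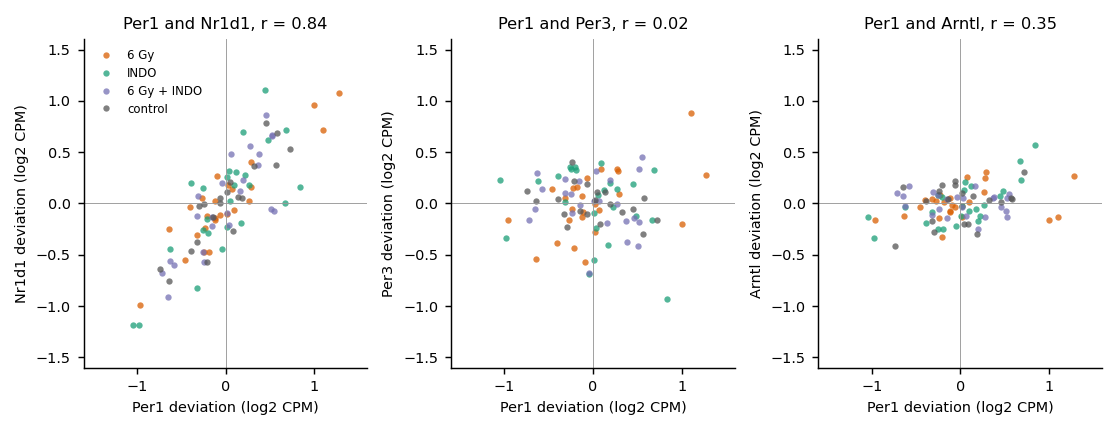
Deviation of log2 CPM from the mean of the treatment and day in each of 94 tumors, for Per1 against Nr1d1 (r = 0.84), Per3 (r = 0.02) and Arntl (r = 0.35), with the treatments in color. Points follow a line for Nr1d1 in all 4 treatments and form a cloud for Per3.

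The genes most like each member were ranked by Pearson r of these deviations over 29373 genes and 94 tumors, as a description. Nearest to Per1 were Zfp36 (0.89), Kdm6b (0.87) and Dedd2 (0.86), of which Zfp36 encodes an RNA-binding protein induced at once by many stimuli. Nearest to Nr1d1 were Klf5 (0.88), Plk3 (0.88) and Per1 (0.84). For Dbp they were Ppp1r15a (0.72), Grina (0.72) and Zfp36l1 (0.72), and Ppp1r15a encodes a stress-induced phosphatase subunit. In contrast, the neighbors of Cry1 were Psmd4 (0.76), Sars (0.75) and Cs (0.75), and those of Per3 were Cplane1 (0.84), Dync2h1 (0.80) and Syne2 (0.79), where Cplane1 and Dync2h1 encode cilium proteins. Nr1d2 stood nearest to Chm (0.89), Mthfd2l (0.88) and Ppm1a (0.88), Per2 to Numb (0.74), Ell (0.74) and Gak (0.73), Cry2 to Ehmt1 (0.73), Zfyve26 (0.73) and Ubr2 (0.72), Tef to Ano10 (0.69), Zfp410 (0.69) and Sun1 (0.67), and Bhlhe41 to Cald1 (0.76), Irf2bp2 (0.76) and Samd12 (0.76). Of the 31 clock genes in both lists, Nr1d1 was in the first 20 neighbors of Per1, Per1 in those of Nr1d1, and both in those of Dbp, while the other 7 members had 0 clock genes among their first 20. For Cry1 the nearest clock gene was Nr1d1, at rank 924.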

How the data were processed

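Total RNA of fresh frozen tumors was sequenced by the authors in paired-end mode, trimmed with Cutadapt and processed in Partek Flow. STAR, Partek 11.0.24.0328 and the build mm10 also stand in the submitters' processing notes with no step assigned to them, and neither the counting tool nor the annotation is named. The paper and the sample labels name different Illumina stranded total RNA kits. For 49080 genes the authors deposited expected counts, written with 1 decimal and without scaling to library size. Such estimates divide a read between the genes it matches, so genes with near copies are less certain.

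All columns matched a sample label, which gave the groups. After rounding to whole numbers, edgeR 4.0.16 in R 4.3.3 (filterByExpr, TMM, quasi-likelihood F test) was run with 1 fit per day over its 4 groups and 1 fit of 94 tumors for means over days, comparisons between days and the treatment by day interaction. The p-values were adjusted by Benjamini-Hochberg over all genes tested, and a gene was called under 0.05. The SE is the size of the log2 fold change over the square root of F. Within-group deviations used log2 CPM with a prior count of 2 and permutation within groups. Totals of 20.996 to 109.3 M counts (mega) set the precision of low genes, with Dbp lowest at 58 counts in 1 tumor.

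The clock genes and all lists were chosen with earlier results of these data known. Named were the 10 members, Arntl, Npas2, Clock, Nfil3, Hlf and Ciart, the called genes of the fixed lists where a result turned on them, and the 3 genes most like each member. The marker lists of tumor epithelium, skeletal muscle, skin, adipocytes, fibroblasts, endothelium, macrophages, neutrophils and T cells held 6 or 8 genes each. Motifs were searched in RefSeq promoters. Alternatives were DESeq2 1.42.0, RLE factors, library scaling by the counts of 14 housekeeping genes, no filter, a replicate block, all 94 tumors in 1 fit, tissue scores as covariates, limits of unadjusted P under 0.05 and a 2-fold change, a prior count of 0.5, and leaving out high-receptor tumors, days, treatments or single tumors. Removing the scores of 9 marker lists from the correlations was chosen after the data were seen. The other assays of the study were not analysed here.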

Additional observations from a re-analysis of the deposited data

Results flagged for a closer look

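A tumor far from the rest of its group was found in 16 of 180 gene and group combinations of 4 or 5 tumors (8.89%). The limit used gives about 1 in 20 by chance for independent values with a normal spread. CPM need not spread that way and the 10 genes share tumors, so that rate is only a guide. Replicate 1 of 6 Gy on day 3 was high in Per1, at 32.9 CPM against 13.1 to 14.4 CPM in the others, and in Nr1d1, at 26.5 CPM against 9.78 to 14.2 CPM. Replicate 3 of 6 Gy on day 15 was high in Per1 (75.8 CPM against 20.03 to 29.9 CPM), Per2 (20.2 against 9.09 to 11.7 CPM) and Nr1d1 (28.7 against 9.21 to 12.5 CPM). Replicate 2 of 6 Gy on day 23 was high in Per3 (32.2 CPM against 11.7 to 16.8 CPM) and Cry2 (27.8 against 12.3 to 15.98 CPM). Among INDO tumors, replicate 3 of day 3 was low in Per3 (9.58 CPM against 20.2 to 23.5 CPM) and Tef (26.0 against 43.3 to 47.5 CPM), and replicate 5 of day 1, a high-receptor tumor, was low in Cry2 (9.54 against 12.9 to 14.2 CPM).

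Among 6 Gy + INDO tumors, Per2 stood out in replicate 4 of day 7 (12.1 CPM against 9.40 to 10.0 CPM) and replicate 5 of day 23 (14.6 against 10.4 to 11.6 CPM). Cry1 was high in replicate 3 of day 3, the 1 tumor there without high receptor reads (8.44 against 6.01 to 6.16 CPM), and Cry2 was low in replicate 3 of day 15 (12.1 against 14.7 to 15.4 CPM). In controls, Bhlhe41 was low in replicate 2 of day 3 (13.4 against 27.9 to 31.0 CPM) and Nr1d2 was high in replicate 4 of day 7 (107 against 54.8 to 60.9 CPM).

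The change against control differed between days by the edgeR interaction test for Nr1d2 after 6 Gy (adjusted p = 0.0123), for Bhlhe41 with INDO (0.0375), and for Bhlhe41 (0.00661), Nr1d2 (0.00651) and Tef (0.00801) with 6 Gy + INDO.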

How the results depend on the processing

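With scores of muscle, skin and adipocyte markers as covariates, members called by edgeR numbered 0 for 6 Gy, INDO, 6 Gy + INDO and any of the 4 groups on day 1, 0 for 6 Gy, 0 for INDO and 1 for any group on day 3, 1 for INDO and 0 for 6 Gy + INDO on day 7, 0 for 6 Gy and 3 for INDO as a mean over days, 1 between days in controls, and 0 for a change that differs between days with INDO or 6 Gy + INDO. By unadjusted P and a 2-fold change they numbered 0, 1 and 1 on day 1 for 6 Gy, INDO and 6 Gy + INDO, 0 in each on day 3, 0 for INDO and 6 Gy + INDO on day 7, and 0 in each as a mean over days. With no filter on low counts INDO had 3 on day 1 and 0 on day 3, controls 3 between days, and the INDO change that differs between days 0.

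Scaling by 14 housekeeping genes shifted the all-gene median log2 fold change by -0.13 to 0.31, with 14 of 21 comparisons over 0.1. Members called were then 9 for any group on day 1, 0 for INDO, 6 for 6 Gy + INDO and 7 for any group on day 3, 1 for 6 Gy and 7 for 6 Gy + INDO on day 7, 6 for 6 Gy + INDO set against 6 Gy, and 0 when set against INDO. Relative to that shift, Cry1 with 6 Gy + INDO was -0.54 as a mean over days, against -0.30 without it. Signs turned for Arntl (0.17) and Clock (0.23) with 6 Gy + INDO against control, for Cry2 (0.18), Tef (0.072), Arntl (0.20) and Clock (0.063) with 6 Gy + INDO against 6 Gy, and for the correlation of Per3 and Arntl (0.27). Arntl with 6 Gy + INDO against control was called higher under this scaling. Relative to the all-gene shifts of 0.24 and 0.26 in these comparisons, the 6 fold changes were below 0 (-0.19 to -0.016). Taking off the shift largely undoes the scaling, so these values and that of Cry1 cannot tell which scaling gives the right sign or size. The share of called genes that were higher, with the TMM share after it, was 12.2% for 6 Gy, day 1 (39.5%), 52% for INDO, day 1 (39.5%), 61.2% for 6 Gy + INDO, day 1 (44.6%), 19.9% for INDO, day 3 (37.6%), 89.7% for 6 Gy + INDO, day 3 (51.7%), 83.1% for INDO, day 7 (52%), 84.2% for 6 Gy + INDO, day 7 (53.9%), 89.4% for 6 Gy + INDO, day 15 (58.5%), 72.3% for INDO, mean over days (49.1%), 86.5% for 6 Gy + INDO, mean over days (56%), 93.3% for 6 Gy + INDO against 6 Gy, mean over days (56.6%), 96.1% for 6 Gy + INDO against INDO, mean over days (67%) and 98.5% for interaction of 6 Gy and INDO, mean over days (74.6%).

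Without high-receptor tumors, members called were 8 for any group on day 1, 0 for INDO, 0 for 6 Gy + INDO and 1 for any group on day 3, 0 for 6 Gy + INDO against INDO and 0 between days in 6 Gy + INDO tumors. DESeq2 called 2 for INDO, 3 for 6 Gy + INDO and 5 for any group on day 3, 1 for any group on day 15, 1 for 6 Gy + INDO on day 23, 1 for the interaction and 2 for an INDO change that differs between days. All 94 tumors in 1 fit gave 2 for INDO on day 7, and 1 for 6 Gy + INDO and 2 for any group on day 23. Without day 1 there were 0 after 6 Gy and 3 with INDO as a mean over days. The INDO mean had 3 without day 7. 6 Gy + INDO against INDO had 0 without day 3, day 7 or day 23 and 2 without day 15, and the interaction had 4 without day 15. RLE factors kept each of these counts within 1.5 times.

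The replicate numbers did not pair the tumors, since in 1 of 30 pairs of groups every same-numbered pair had r over 0.1 (55 of 132 tumor pairs did). A replicate block gave 0 members for INDO on day 3, 1 for 6 Gy on day 7 and 1 for the interaction.

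Leaving out 1 tumor or replicate number at a time gave 3 to 7 members for INDO and 5 to 9 for any group on day 1, 0 to 1 for 6 Gy, 0 to 2 for INDO, 1 to 2 for 6 Gy + INDO and 2 to 5 for any group on day 3, 0 to 1 for 6 Gy and 2 to 4 for INDO on day 7, and 0 to 1 for 6 Gy + INDO on day 23. Over days it gave 2 to 5 for 6 Gy, 3 to 6 for INDO, 0 to 1 for 6 Gy + INDO against INDO, 0 to 2 for the interaction, 3 to 5, 1 to 4 and 1 to 4 between days in 6 Gy, 6 Gy + INDO and control tumors, and 0 to 1, 0 to 0 and 1 to 4 for a change that differs between days with 6 Gy, INDO and 6 Gy + INDO.

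Correlated pairs numbered 26 of 55, and within treatments 16 in 6 Gy, 13 in INDO, 10 in 6 Gy + INDO and 9 in control tumors. Signs turned within 6 Gy + INDO for Per1 with Bhlhe41 (-0.23) and Arntl (-0.25), Per2 with Arntl (-0.016), Cry1 with Nr1d2 (-0.19), Cry2 with Nr1d1 (-0.00298), and Dbp with Tef (-0.00254) and Arntl (-0.20), and within controls for Per3 with Per2 (-0.25), Cry2 (-0.046) and Tef (-0.24). Except where fewer tumors or genes entered a fit, the cause was not tested. With 3 controls each, days 15 and 23 had at most 282 genes called in any treatment comparison.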
